A study of Mus musculus with 2 samples.

Results

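Cytochrome P450 enzymes of families 1 to 4 are membrane-bound haem proteins of the endoplasmic reticulum that oxidise drugs, toxicants, steroids, fatty acids and eicosanoids. The liver is their main site, and hepatocytes express most of them under the control of nuclear receptors and liver-enriched transcription factors. Each catalytic cycle needs haem and electrons, which NADPH-P450 oxidoreductase and cytochrome b5 deliver, and inflammation is known to lower the mRNA of many of these genes in the liver.

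The genes were chosen by name alone: protein-coding genes whose symbol has Cyp, a family number from 1 to 4, a letter and a number, with or without a closing letter as in Cyp3a41a. The rule found 80 genes in 21 subfamilies, out of 21896 protein-coding and 52489 annotated genes in the tables.

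Livers came from Gbp5 knockout mice (KO, GBP5-/-) and from wild-type controls (WT), both C57BL/6 and 9 weeks old. Both groups had received D-galactosamine at 800 µg and lipopolysaccharide at 100 ng per g body weight 6 h before, so no untreated liver was compared. Lipopolysaccharide is a bacterial endotoxin to which D-galactosamine, by trapping uridine nucleotides of hepatocytes, makes the liver sensitive, and Gbp5 encodes an interferon-inducible GTPase. The labels do not say which part of Gbp5 was deleted. Each genotype is represented by a single library made from the combined RNA of 4 livers. There are therefore no replicates, no p-values and no measure of the spread between animals. Ratios are KO over WT on CPM, a gene's reads scaled to the reads assigned to all genes of its library, with exact 95% Clopper-Pearson intervals that cover counting error only and compare these pools, not the genotypes.

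The KO library held 15750875 reads in genes and the WT library 19864848. At these depths a gene with no read may still have had up to 3 reads, which is 0.190 CPM in KO and 0.151 CPM in WT. Gbp5, the targeted gene, had 873 reads in KO and 3211 in WT and was 2.92-fold lower in KO (interval 2.71 to 3.15). The 9 hepatocyte markers summed to 104428 CPM in KO and 66388 in WT, and 8 of 9 had a ratio above 1, from 1.05 for Tat to 1.80 for Alb. Most of both sums was Alb, with 69250 CPM in KO and 38384 CPM in WT. The 9 Kupffer cell and macrophage markers summed to 560 CPM in KO and 1385 in WT, and none was above 1. Of all protein-coding genes with a mean of 1 CPM or more, 45.2% had a ratio above 1. Xist had 4 reads in KO and 0 in WT and the Y-linked Ddx3y 873 in KO and 854 in WT; these genes were picked after other values had been seen.

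As many P450 genes are recent copies of each other, sequence limits what a read count can show. Shown first is the start of the coding sequence of 3 genes of the Cyp2c cluster, because they had nearly equal ratios below. The sequences are the first 90 coding bases of exon 1 on GRCm38 in GENCODE M21, 5′ to 3′, and capitals mark bases that differ from Cyp2c67. The positions are chr19:39648941-39649030, chr19:39740952-39741041 and chr19:39886618-39886707, all on the minus strand.
Cyp2c67: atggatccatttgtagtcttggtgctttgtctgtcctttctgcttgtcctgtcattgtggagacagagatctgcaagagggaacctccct
Cyp2c68: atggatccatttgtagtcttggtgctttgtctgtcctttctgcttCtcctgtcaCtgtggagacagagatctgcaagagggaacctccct
Cyp2c69: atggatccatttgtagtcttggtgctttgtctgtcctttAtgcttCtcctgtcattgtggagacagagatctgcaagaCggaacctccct
Cyp2c68 differed from Cyp2c67 at 2 of these 90 bases and Cyp2c69 at 3. Over the whole coding sequence of 1473 bases the identity with Cyp2c67 was 97.1% for Cyp2c68 and 97.7% for Cyp2c69.

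The next set shows 4 genes of the Cyp4a cluster, because their ratios went in opposite directions. Capitals mark bases that differ from Cyp4a12a. The positions are chr4:115299128-115299217, chr4:115411683-115411772 and chr4:115518322-115518411 on the plus strand for Cyp4a12a, Cyp4a12b and Cyp4a10, and chr4:115496024-115496113 on the minus strand for Cyp4a14.
Cyp4a12a: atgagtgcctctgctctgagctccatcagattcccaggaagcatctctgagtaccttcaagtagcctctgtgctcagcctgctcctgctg
Cyp4a12b: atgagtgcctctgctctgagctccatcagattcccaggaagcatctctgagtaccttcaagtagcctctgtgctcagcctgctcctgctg
Cyp4a10: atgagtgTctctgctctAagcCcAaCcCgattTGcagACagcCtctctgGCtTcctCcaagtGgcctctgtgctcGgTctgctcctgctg
Cyp4a14: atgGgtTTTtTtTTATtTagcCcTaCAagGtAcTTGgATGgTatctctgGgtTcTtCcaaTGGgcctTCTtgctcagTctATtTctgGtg
Cyp4a12a and Cyp4a12b were identical over these bases, with 98.5% identity over 1524 coding bases, whereas Cyp4a10 differed at 18 and Cyp4a14 at 38. Cyp4a10 and Cyp4a14 were 75.1% identical to each other over their coding sequences.

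To put a number on this for every gene, all 100-base windows of its annotated transcripts were looked up in the transcripts of all other genes. No window was shared for 27 of the 80 genes, and 7 genes shared 20% or more. These were Cyp3a41a (90.8%) and Cyp3a41b (88.2%), Cyp4a12b (36.2%) and Cyp4a12a (35.8%), Cyp2c69 (35.4%), Cyp2c40 (34.4%) and Cyp2c67 (23.7%), and their separate values are uncertain. Cyp2c68 (19.8%), Cyp4a32 (18.2%), Cyp4a10 (12.2%), Cyp2d11 (12.2%), Cyp2a5 (12.1%), Cyp2d10 (11.7%) and Cyp2a4 (11.2%) followed. The remaining genes with reads shared less than 10% each. Cyp2f2 also overlaps the antisense gene Gm15883 over 13.5% of its exon bases, and Cyp4f18 overlaps Zfp961 on the opposite strand over 9.76%. Cyp2s1 overlaps the antisense gene Gm26707 over 5.27% of its exon bases and Cyp2u1 the gene 4930534D22Rik on the opposite strand over 10.5%. The strand setting of the counting is not given in the sources used here. Gm15883 had 43 reads in KO and 41 in WT.

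All 80 genes together took 2.27% of reads in KO and 1.84% in WT, or 22748 CPM in KO and 18412 CPM in WT. The sum was 1.24-fold higher in KO (interval 1.23 to 1.24). The hepatocyte markers given above were higher in KO as well, and their part in the P450 result was not tested. In bulk RNA fewer cells of a type and less RNA per cell cannot be told apart. A mean of 1 CPM or more over both libraries was reached by 54 genes, and 41 of these had a ratio above 1 and 13 below 1. Among 12273 protein-coding genes past the same filter, 45.2% had a ratio above 1. The interval lay above 1 for 31 of the 54 and below 1 for 3, against 27.2% and 38.3% of all genes. Such intervals narrow with the number of reads, and 27 of the 54 had a mean of 100 CPM or more. These shares were not matched for level. The median log2 ratio was 0.17 over the 54 genes and -0.07 over all genes. Differences were small in size: 44 of the 54 lay within 1.5-fold, 10 were 1.5-fold or more higher (10.3% of all genes) and none was 1.5-fold or more lower (24.6% of all genes). Past 2-fold, 3 genes were higher, Cyp2s1, Cyp1a1 and Cyp4a14 (background 2.80%), and none was lower (background 12.1%).

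Ratios in these libraries went with base composition, and P450 genes are unlike the average gene in this respect. The median GC content of transcripts was 47.4% over the 54 genes and 50.2% over all genes. In the tenth of all genes lowest in GC the median log2 ratio was 0.31, and in the tenth highest -0.92. A correction that subtracts the median of genes of like GC content and length left 33 of the 54 P450 genes above 0, against 50.2% of all genes, and a median log2 of 0.068. The corrected ratio of the sum was 1.11. After it, Cyp2s1 and Cyp1a1 were 2-fold or more higher and Cyp4a14 was not, against 3.42% of all genes, and none was 2-fold or more lower, against 5.64%. Past 1.5-fold, Cyp2c39 (corrected ratio 0.608) and Cyp4a12b (0.640) were then lower, and Cyp2s1, Cyp1a1, Cyp4a14 and Cyp2c55 higher. No share of all genes at 1.5-fold was at hand after the correction. The part of base composition in the remaining differences was not tested.

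**Figure D1:**
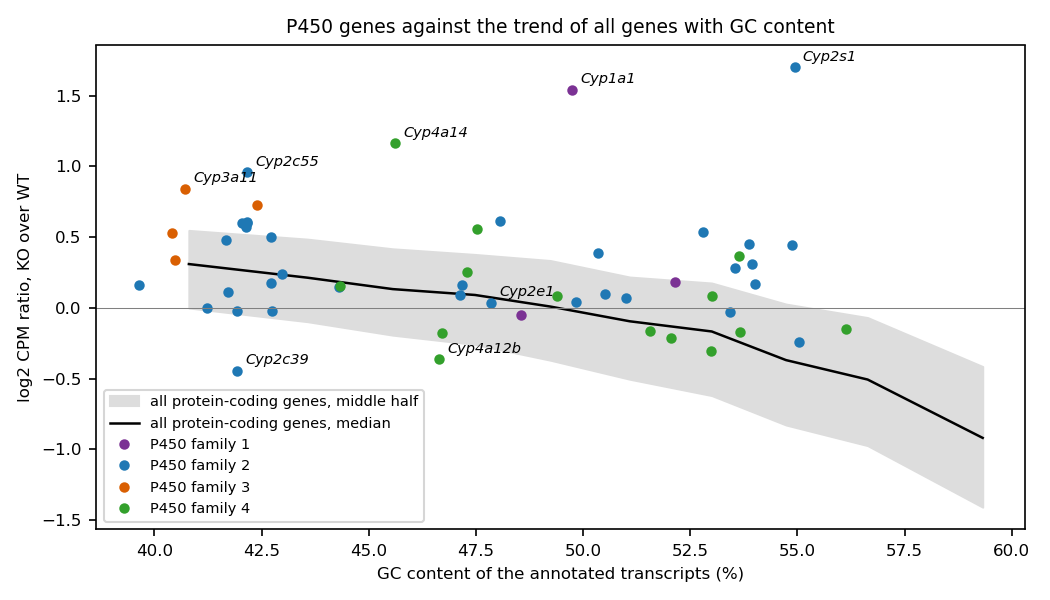
Log2 CPM ratio of KO over WT against the GC content of annotated transcripts in percent, for the 54 P450 genes with a mean of 1 CPM or more, coloured by family. The line and band give the median and interquartile range of all protein-coding genes in 10 GC bins, from a median of 0.31 to -0.92. Cyp2s1, Cyp1a1, Cyp4a14, Cyp2c55 and Cyp3a11 are among the points above the band, and Cyp2c39 and Cyp4a12b lie below it.

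Per length of transcript, the order of the genes was close to the same in both pools. Cyp2e1, which oxidises ethanol and acetaminophen, was the most abundant at 1966 FPKM (CPM divided by exon length in kilobases) in KO and 1915 FPKM in WT. Cyp2f2, an enzyme of periportal hepatocytes, was next with 698 FPKM in KO and 512 FPKM in WT. Cyp3a11, the main mouse enzyme of its family for drugs and steroids, ranked 3 in KO with 675 FPKM and 7 in WT with 376 FPKM. Spearman's rho between the pools was 0.98 over the 70 genes with a read, a description across genes that share the same 2 libraries. The 3 genes with the most reads, Cyp2e1, Cyp3a11 and Cyp2c29, held 42.8% of all P450 reads of families 1 to 4 in KO and 40.3% in WT.

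**Figure D2:**
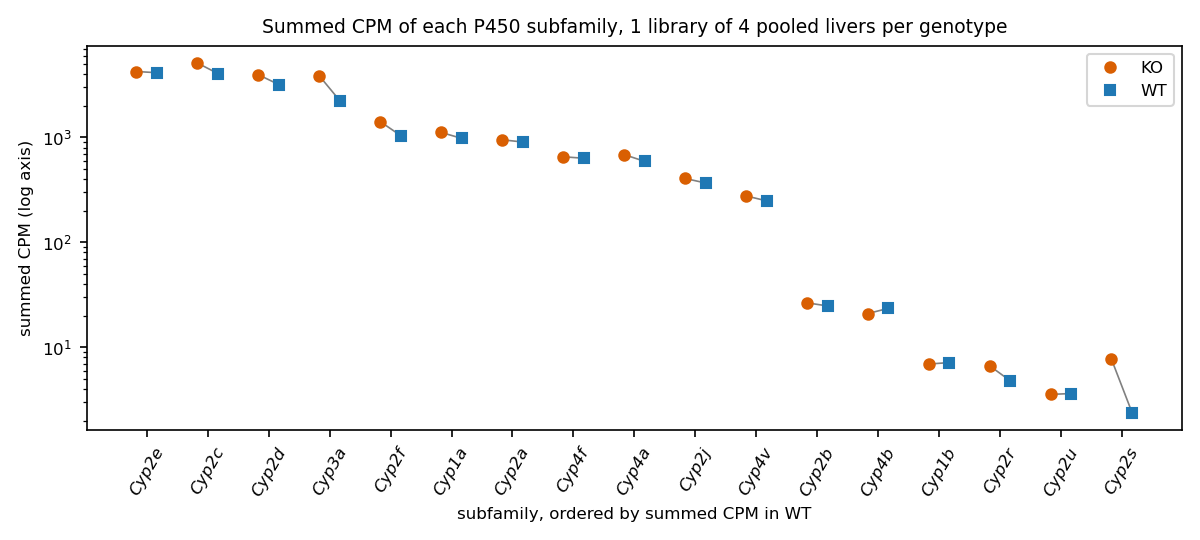
Summed CPM on a log axis for the 17 subfamilies that hold a gene with a mean of 1 CPM or more, KO as circles left of WT as squares. The Cyp3a pair is 3862 against 2228 CPM and the Cyp2s pair 7.68 against 2.37 CPM, while the Cyp2e pair lies at 4242 and 4133 CPM.

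In 14 of these 17 subfamilies the sum was higher in KO. The Cyp1b, Cyp2u and Cyp4b sums were lower, and the intervals of all 3 included 1. With the GC and length correction 10 of 17 were higher, and the Cyp2a, Cyp2e, Cyp2j, Cyp4a and Cyp4v sums came below 1 and Cyp2u came above it.

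Cyp3a, the subfamily that takes in most drugs and is induced through the pregnane X receptor, had the largest ratio among subfamilies above 100 CPM. It summed to 3862 CPM in KO and 2228 CPM in WT, a ratio of 1.73 (1.71 to 1.75), or 1.39 after the correction. Cyp3a11 (chromosome 5, 145854426 to 145879964, minus strand, GRCm38) had 54169 reads or 3439 CPM in KO and 38078 reads or 1917 CPM in WT. Its ratio was 1.79 (1.77 to 1.82), and 1.43 after the correction. Without Cyp3a11 the rest of the subfamily had a ratio of 1.36. Cyp3a13, also an enzyme of the intestine, had 113 CPM in KO and 68.0 CPM in WT (ratio 1.66, 1.54 to 1.78). Cyp3a59 had a ratio of 1.44 (1.22 to 1.70) and Cyp3a25, with 289 CPM in KO and 229 CPM in WT, of 1.26 (1.21 to 1.32), so all 4 genes that passed the filter were above 1, as they were after the correction. The other 5 genes, Cyp3a16, Cyp3a41a, Cyp3a41b, Cyp3a44 and Cyp3a57, had at most 2 reads in either library.

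Cyp2c, the largest subfamily with 15 genes, all on chromosome 19, oxidises drugs, retinoids and arachidonic acid. It summed to 5114 CPM in KO and 4048 CPM in WT (ratio 1.26, 1.25 to 1.28), or 1.04 after the correction. Its genes did not move as one. Cyp2c29, the member with the most reads, had 2047 CPM in KO and 1379 CPM in WT (ratio 1.48, 1.46 to 1.51). Cyp2c50 had 859 CPM in KO and 858 CPM in WT, and the interval of its ratio was 0.979 to 1.02. Cyp2c54, a close relative of Cyp2c50 that shares 6.16% of its windows with it, had a ratio of 0.984 (0.949 to 1.02). Cyp2c70, which makes the muricholic acids of mouse bile, had 611 CPM in KO and 565 CPM in WT (ratio 1.08, 1.05 to 1.11). After the correction the ratios of Cyp2c50, Cyp2c54 and Cyp2c70 were all below 1, at 0.809, 0.813 and 0.893. The share of Cyp2c reads that came from Cyp2c29 was 40.0% in KO and 34.1% in WT, and that of Cyp2c50 16.8% in KO and 21.2% in WT.

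Within the cluster, Cyp2c67, Cyp2c68, Cyp2c69 and Cyp2c40 had ratios of 1.52, 1.51, 1.52 and 1.41. Cyp2c67 had 222 CPM in KO and 146 CPM in WT, and Cyp2c68 176 CPM in KO and 116 CPM in WT. Cyp2c69 had 11.3 CPM in KO and 7.45 CPM in WT, and Cyp2c40 30.8 CPM in KO and 21.8 CPM in WT. All 4 intervals lay above 1. After the correction the ratios of Cyp2c67, Cyp2c68, Cyp2c69 and Cyp2c40 were 1.26, 1.25, 1.25 and 1.18. As the coding sequences above differ little, reads of one gene may have been counted for another, and the 4 ratios are not independent of each other. Cyp2c23, an arachidonic acid epoxygenase that shares no window with these, had 414 CPM in KO and 271 CPM in WT. Its ratio was 1.53 (1.47 to 1.58), and 1.34 after the correction.

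Among the 13 Cyp2c genes past the filter, the highest ratio belonged to Cyp2c55, an enzyme also of the large intestine, with 117 reads in KO and 76 in WT (7.43 CPM in KO and 3.83 CPM in WT). Its ratio was 1.94 (1.44 to 2.63), just short of 2-fold, and 1.60 after the correction. The lowest belonged to Cyp2c39, with 14 reads in KO and 24 in WT and a ratio of 0.736 whose interval, 0.352 to 1.48, included 1. Cyp2c65, known from the gut, had 27 reads in KO and 0 in WT and was at least 11.4-fold higher when its KO reads are taken as counted and WT is set to the floor of 3 reads. With the counting error of the KO reads, the exact lower limit was 8.61-fold. Its mean of both libraries stayed under 1 CPM. Its close relative Cyp2c66 had 1 read in each.

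Promoters of these genes were read from the RefSeq table of GRCm38.p6, which holds 250 bases before and 50 after each start and had entries for 65 of the 80 genes. Cyp4a10, Cyp4a12a, Cyp4a12b and Cyp4a14 were among the 15 without one. The 9 letters CAAAGTCCA, a core that the hepatocyte factor HNF4 alpha is known to bind, were searched on both strands. They occurred in 10 of the 65 genes and in 0.475% of all 32851 promoters. The 10 were Cyp2c40, Cyp2c65, Cyp2c67, Cyp2c68, Cyp2c69, Cyp2c70, Cyp3a11, Cyp3a16, Cyp3a41a and Cyp3a41b. The motif was chosen after the values and matches had been seen, and copies of one ancestral promoter are not separate cases. The stretches of 60 bases around it are shown for the genes with reads enough to compare, all on the minus strand, with the match in capitals. The positions, in the order given, are chr19:39812825-39812884, chr19:39649133-39649192, chr19:39741144-39741203, chr19:39886810-39886869, chr19:40187316-40187375 and chr5:145879929-145879988.
Cyp2c40: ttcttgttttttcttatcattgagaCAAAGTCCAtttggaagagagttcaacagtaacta
Cyp2c67: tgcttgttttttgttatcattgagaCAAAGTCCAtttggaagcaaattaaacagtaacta
Cyp2c68: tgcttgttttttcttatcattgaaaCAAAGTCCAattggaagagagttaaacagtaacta
Cyp2c69: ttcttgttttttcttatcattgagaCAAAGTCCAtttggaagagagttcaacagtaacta
Cyp2c70: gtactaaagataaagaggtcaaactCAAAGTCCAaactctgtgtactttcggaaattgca
Cyp3a11: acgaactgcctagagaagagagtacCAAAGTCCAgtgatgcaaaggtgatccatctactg
The match began 45 bases before the start in Cyp2c40 and 125 bases before it in Cyp2c67. The genes that hold it had ratios of 1.08 for Cyp2c70 and 1.41 to 1.79 for the others shown, while Cyp3a16 and Cyp3a41a had no read in either library. Cyp2c29, Cyp2c55, Cyp2c38 and Cyp2c39, whose promoters lack the match, had ratios of 1.48, 1.94, 1.12 and 0.736. A link between the match and the ratios was not tested. Hnf4a itself had 461 CPM in KO and 423 CPM in WT (ratio 1.09, 1.06 to 1.12). Its log2 ratio of 0.12 became 0.67 after the correction.

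Cyp2d, which in the mouse includes steroid hydroxylases and the relatives of human CYP2D6, summed to 3954 CPM in KO and 3180 CPM in WT. The ratio was 1.24 (1.23 to 1.26). Cyp2d9, a male-biased testosterone 16-alpha hydroxylase, had 1557 CPM in KO and 1281 CPM in WT (ratio 1.22, 1.19 to 1.24), and Cyp2d26 had 1095 CPM in KO and 884 CPM in WT (ratio 1.24, 1.21 to 1.27). Among genes past the filter, the highest ratio was that of Cyp2d40 at 1.45 (1.35 to 1.55), and the lowest that of Cyp2d11 at 0.848 (0.544 to 1.31) on 37 reads in KO and 55 in WT. Cyp2d10, which Cyp2d11 shares windows with, had a ratio of 1.36 (1.33 to 1.39). Of the 7 genes that passed the filter 6 were above 1 both before and after the correction. Cyp2d34 had 0 reads in KO and 9 in WT and was at least 2.38-fold lower when its WT reads are taken as counted and KO is set to the floor of 3 reads, with an exact lower limit of 1.57-fold.

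Subfamilies of family 2 with a single gene differed widely in level. Cyp2e1 had 66821 reads or 4242 CPM in KO and 82103 reads or 4133 CPM in WT, and its ratio of 1.03 (1.02 to 1.04) became 0.897 after the correction. Cyp2f2 had 22274 reads or 1414 CPM in KO and 20584 reads or 1036 CPM in WT (ratio 1.36, 1.34 to 1.39; 1.42 after the correction). Cyp2r1, a vitamin D 25-hydroxylase, had a ratio of 1.39 (1.05 to 1.86) on 105 reads in KO and 95 in WT. For Cyp2u1, a hydroxylase of long-chain fatty acids, the ratio was 0.981 (0.679 to 1.41) on 56 reads in KO and 72 in WT, and Cyp2t4 and Cyp2g1, the second an enzyme of the olfactory mucosa, had a mean of both libraries under 1 CPM. Cyp2t4 had 16 reads in KO and 14 in WT.

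In Cyp2a, Cyp2b and Cyp2j the pools were close. Cyp2a12 had 536 CPM in KO and 502 CPM in WT (ratio 1.07, 1.04 to 1.10), and Cyp2a5, the coumarin 7-hydroxylase, 408 CPM in KO and 397 CPM in WT (ratio 1.03, 0.995 to 1.06). Cyp2a4 had the highest ratio of that subfamily, 1.31 (0.728 to 2.37) on 26 reads in KO and 25 in WT. Cyp2b10, the classical target of the constitutive androstane receptor, had 26.5 CPM in KO and 24.7 CPM in WT (ratio 1.07, 0.940 to 1.23). Cyp2j5, an arachidonic acid epoxygenase, led its subfamily with 346 CPM in KO and 307 CPM in WT (ratio 1.13, 1.09 to 1.17), and Cyp2j6 had the lowest ratio of the 3 Cyp2j genes past the filter, 0.983 (0.900 to 1.07).

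In family 1, whose genes respond to the aryl hydrocarbon receptor, the abundant and the scarce Cyp1a gene differed. Cyp1a1, which oxidises polycyclic aromatic hydrocarbons (chromosome 9, 57687928 to 57703824, plus strand), had 67 reads or 4.25 CPM in KO and 29 reads or 1.46 CPM in WT. Its ratio was 2.91 (1.86 to 4.67), and 2.59 after the correction. Cyp1a2, its neighbour on chromosome 9 and a constitutive hepatocyte enzyme, had 1110 CPM in KO and 976 CPM in WT (ratio 1.14, 1.11 to 1.16). The counting intervals of these 2 ratios did not overlap. Cyp1b1, expressed mainly in stromal cells, had 6.92 CPM in KO and 7.15 CPM in WT (ratio 0.968, 0.747 to 1.25). Ahr had 11.8 CPM in KO and 16.9 CPM in WT (1.43-fold lower in KO, 1.19 to 1.72).
The promoter of Cyp1a1 at chr9:57697534-57697593 (plus strand) is shown because it holds GCGTG and TATAAA, both in capitals. They lie 54 and 30 bases before the RefSeq start. GCGTG occurs within the aryl hydrocarbon response element, but a match to these letters alone does not make such an element. Binding of the receptor here was not tested.
Cyp1a1: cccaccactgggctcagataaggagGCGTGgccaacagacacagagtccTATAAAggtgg
GCGTG occurred on either strand in 13 of the 65 genes and in 32.4% of all promoters, and TATAAA in 29 of the 65 and in 13.6%.

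Cyp2s1, an enzyme of epithelia outside the liver (chromosome 7, 25802475 to 25816913, minus strand), had the highest ratio of the 54 genes. It had 121 reads or 7.68 CPM in KO and 47 reads or 2.37 CPM in WT (ratio 3.25, 2.30 to 4.65; 4.73 after the correction). Beside this and the gut enzymes Cyp2c55 and Cyp2c65, markers of other epithelia also differed. The 7 markers of cholangiocytes and gallbladder summed to 295 CPM in KO and 161 CPM in WT. Of these, 6 of 7 were above 1 and 4 were 2-fold or more higher, against 45.2% and 2.80% of all genes. The 7 intestinal markers summed to 373 CPM in KO and 78.2 CPM in WT; Dmbt1 alone had 4319 reads in KO and 20 in WT, while the defining genes Cdx2 and Muc2 had none in either. The 7 pancreatic acinar markers summed to 40.3 CPM in KO and 26.6 CPM in WT. Ctrb1 had 297 reads in KO and 0 in WT, Cela1 328 in KO and 521 in WT, and Cpa1, Pnlip and Amy2a5 had none. The part of these cells in the P450 ratios was not tested. Cyp2w1 and Cyp2b19, also known from outside the liver, had no read, and Cyp4b1, an enzyme of the lung, had 21.0 CPM in KO and 23.5 CPM in WT (ratio 0.891, 0.772 to 1.03).

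The Cyp4a subfamily, fatty acid omega-hydroxylases, held abundant genes that differed in direction. Cyp4a14 (chromosome 4, 115486200 to 115496142, minus strand), a target of the fatty acid receptor PPAR alpha, had 2259 reads or 143 CPM in KO and 1269 reads or 63.9 CPM in WT. Its ratio was 2.25 (2.09 to 2.41), and 1.85 after the correction. Cyp4a10, another such target, had 209 CPM in KO and 142 CPM in WT (ratio 1.47, 1.40 to 1.55). Cyp4a31 and Cyp4a32, of the same group, had ratios of 1.19 and 1.06 with intervals that included 1.
On the other side, Cyp4a12a, an androgen-dependent gene, had 234 CPM in KO and 265 CPM in WT, 1.13-fold lower in KO (1.08 to 1.18). Cyp4a12b had 78.2 CPM in KO and 101 CPM in WT, a ratio of 0.778 (0.724 to 0.835), or 0.640 after the correction. These 2 share 35.8% and 36.2% of their windows, as given above, so the split between them is uncertain. Both ratios were below 1, but as reads of one gene may have been counted for the other, they are not independent. The share of Cyp4a reads from Cyp4a14 was 20.9% in KO and 10.8% in WT, and that from Cyp4a12a 34.1% in KO and 44.8% in WT. The summed ratio of the subfamily, 1.16 (1.13 to 1.19), is made of differences in both directions. It was 0.997 after the correction and 1.66 without Cyp4a12a and Cyp4a12b, the 2 Cyp4a genes that share 20% or more of their windows. Ppara had 31.5 CPM in KO and 23.5 CPM in WT (ratio 1.34, 1.18 to 1.52).

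Cyp4f, which inactivates leukotriene B4 and hydroxylates long-chain fatty acids, summed to 654 CPM in KO and 633 CPM in WT (ratio 1.03, 1.01 to 1.06). Cyp4f14 had 372 CPM in KO and 351 CPM in WT (ratio 1.06, 1.02 to 1.10). Among the 6 genes past the filter, Cyp4f13 had the highest ratio, 1.29 (1.21 to 1.38), and Cyp4f16 the lowest, 0.808 (0.605 to 1.07). Cyp4f15 was 1.16-fold lower in KO (1.10 to 1.22), with 147 CPM in KO and 171 CPM in WT. Cyp4f18, the leukotriene B4 hydroxylase of mouse neutrophils, had 35 reads in KO and 49 in WT (ratio 0.901, 0.567 to 1.42), while the 7 neutrophil markers summed to 321 CPM in KO and 413 CPM in WT. Cyp4v3, a fatty acid hydroxylase, had 277 CPM in KO and 248 CPM in WT (ratio 1.12, 1.07 to 1.16; 0.946 after the correction).

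**Figure D3:**
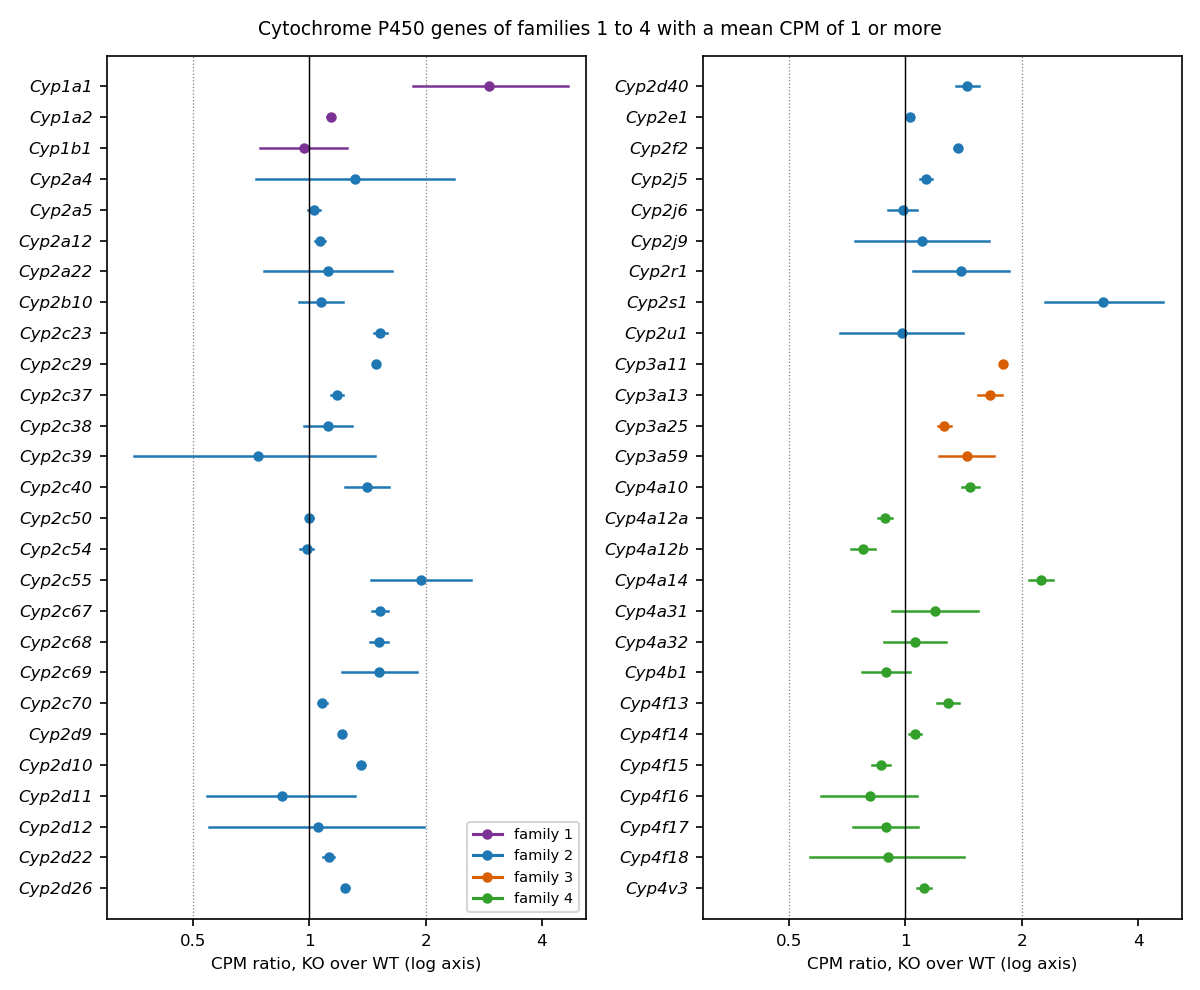
CPM ratio of KO over WT on a log axis for the 54 P450 genes with a mean of 1 CPM or more, with 95% counting intervals and dotted lines at 2-fold. Only Cyp1a1, Cyp2s1 and Cyp4a14 have points beyond 2-fold, and the intervals of Cyp4a12a, Cyp4a12b and Cyp4f15 lie wholly below 1.

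Of the 26 genes under the filter, 10 had no read in either library and 16 had at most 27 reads. Among the 16, Cyp4x1 had 8 reads in KO and 0 in WT and Cyp4f40 7 in KO and 0 in WT, which put them at least 3.36-fold and 2.94-fold higher when KO reads are taken as counted and WT is set to the floor of 3 reads. The exact lower limits were 2.15-fold for Cyp4x1 and 1.82-fold for Cyp4f40. Cyp2g1 had 8 reads in KO and 2 in WT, a ratio of 5.04 (1.01 to 48.8).

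Read by known regulation or place, the groups behaved as follows. For comparison, 45.2% of all genes had a ratio above 1, and 50.2% did so after the correction. The 4 PPAR alpha targets summed to 374 CPM in KO and 226 CPM in WT (ratio 1.66, 1.60 to 1.73), with all 4 above 1 and 3 after the correction. The 10 targets of the constitutive androstane and pregnane X receptors summed to 7202 CPM in KO and 4909 CPM in WT (ratio 1.47, 1.45 to 1.48). Most of the CPM of these 10 targets came from Cyp3a11 and Cyp2c29, in KO as in WT. Of the 8 targets that passed the filter 7 were above 1, and 5 after the correction. The receptor genes themselves were lower in KO. Nr1i2, the pregnane X receptor, was 1.44-fold lower in KO (1.32 to 1.58) and Nr1i3, the constitutive androstane receptor, 1.44-fold lower (1.22 to 1.72). The 8 pericentral genes summed to 12816 CPM in KO and 10318 CPM in WT (ratio 1.24), with 7 above 1 but 3 after the correction. Cyp2c29, Cyp2c37, Cyp2c50, Cyp2c54 and Cyp3a11 were counted both here and among the 10 receptor targets. Of 9 female-biased genes, Cyp2b13, Cyp3a16 and Cyp3a41a had no read and Cyp2b9, Cyp3a41b and Cyp3a44 at most 2 in either library. Nearly all reads of the group came from Cyp2a4, Cyp2c40 and Cyp2c69, all with a ratio above 1, and the group summed to 43.9 CPM in KO and 30.7 CPM in WT (ratio 1.43, 1.28 to 1.60). The 3 male-biased genes summed to 1869 CPM in KO and 1646 CPM in WT, with Cyp2d9 above 1 and both Cyp4a12 genes below.

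Genes of electron transfer and of haem synthesis and breakdown were listed separately. Hmox1, Hmox2, Blvra and Blvrb, of haem breakdown, had ratios of 0.698, 1.14, 0.805 and 0.845. Fdx1 and Fdxr, of electron transfer in mitochondria, had ratios of 1.34 and 0.526. Of all 20 genes in the list 7 had a ratio above 1, against 45.2% of all genes. Their median log2 ratio was -0.19, against -0.07 over all genes. After the correction 10 of 20 were above 0, against 50.2% of all genes, with a median of 0.013. Alas1, the rate-limiting enzyme of haem synthesis in the liver, had 7055 reads or 448 CPM in KO and 2646 reads or 133 CPM in WT. Its ratio was 3.36 (3.22 to 3.52), which lies within the interval of Cyp2s1 given above, and its log2 ratio of 1.75 became 2.10 after the correction, against 2.24 for Cyp2s1. Cpox, a later enzyme of the same pathway, had 46.7 CPM in KO and 117 CPM in WT, 2.51-fold lower (2.31 to 2.73). Alas1 and Cpox were the 2 genes of the list past 2-fold, against 2.80% of all genes higher and 12.1% lower. Por, the oxidoreductase, had 503 CPM in KO and 585 CPM in WT (ratio 0.861, 0.837 to 0.886), and its log2 ratio of -0.22 became 0.30 after the correction. Cyb5a, cytochrome b5, had 1078 CPM in KO and 942 CPM in WT (ratio 1.14, 1.12 to 1.17).

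Of 22 regulators of P450 genes 20 passed the filter and 6 were above 1, against 45.2% of all genes, with a median log2 ratio of -0.16, against -0.07. After the correction 10 of 20 were above 0 and the median was 0.060, so its sign turned. Cebpa, a hepatocyte factor, had 127 CPM in KO and 271 CPM in WT, 2.13-fold lower in KO (2.02 to 2.24). Stat5b, which carries growth hormone signals to sex-biased P450 genes, had 21.5 CPM in KO and 51.2 CPM in WT, 2.39-fold lower (2.11 to 2.71). Cebpa and Stat5b were the 2 of 20 regulators that were 2-fold or more lower, against 12.1% of all genes. Both log2 ratios, -1.09 and -1.25, were short of 2-fold after the correction, at -0.51 and -0.71, while Rxra, with a ratio of 1.02, then came past 2-fold at 1.11 on the log2 scale. The highest was Nr1h4, the bile acid receptor, with 54.5 CPM in KO and 31.9 CPM in WT (ratio 1.71, 1.54 to 1.89).

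Among P450 genes of the other families, of 19 genes 13 passed the filter and 5 were above 1, against 45.2% of all genes, and their sum was 974 CPM in KO and 1136 CPM in WT (ratio 0.857, 0.839 to 0.875). Past 2-fold were 2 higher and 2 lower, against 2.80% and 12.1% of all genes, too few to set against those shares. Cyp39a1, an oxysterol hydroxylase, had a ratio of 2.92 (2.47 to 3.47) and Cyp26b1, a retinoic acid hydroxylase, of 2.45 on 285 reads in KO and 147 in WT. In the opposite direction, Cyp26a1, also a retinoic acid hydroxylase, was 2.39-fold lower in KO (1.97 to 2.92) and Cyp21a1 4.55-fold lower (2.91 to 7.43), the second on 23 reads in KO and 132 in WT and beside a pseudogene of similar sequence. The difference from families 1 to 4 was not tested.

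**Figure D4:**
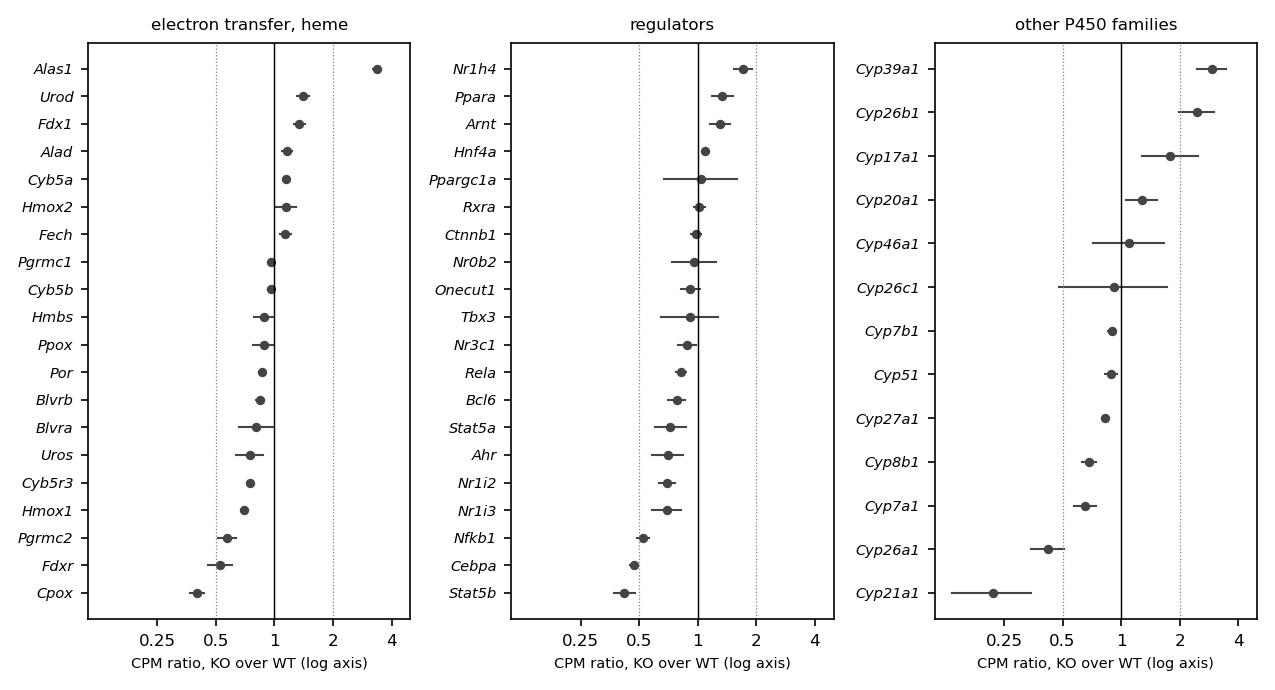
CPM ratio of KO over WT on a log axis, with 95% counting intervals, for genes with a mean of 1 CPM or more. Shown are electron transfer and haem synthesis or breakdown (left), regulators (middle) and P450s of other families (right). Alas1 at 3.36 and Cpox at 0.399 are the points past the dotted 2-fold lines on the left.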

How the data were processed

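The deposited files hold whole-number read counts per gene from the authors, although the file names say FPKM: totals differ between libraries, and 2982 genes in KO and 2707 in WT stood at exactly 1 read. TopHat2, HTSeq 0.6.1 and the build GRCm38 are named per the submitters' processing notes; no source used here states the annotation release, the strand option or any filtering. Entries without an Ensembl gene (0.496% of reads in KO, 0.652% in WT) were left out. Of 52636 Ensembl genes, 52489 were found in GENCODE M21 (GRCm38), which gave names, biotypes, exon length and GC content. The members and lists were chosen with earlier results of these data known.

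CPM used the reads assigned to genes, and FPKM was computed here from union exon length, which may differ from the authors' annotation. Calls are 2-fold by size among genes with a mean of 1 CPM or more; no test exists with 1 library per group. The correction took medians of protein-coding genes with 100 reads or more in 10 GC by 4 length bins. Genes given in full were the 3 with most reads per family, the highest and lowest ratio per subfamily and those past 2-fold, in the members and the lists of partner genes; others were chosen after their values were seen. Alternatives were other library scalings, the correction, other filters and folds, FPKM with a pseudocount of 1, and sums without leading genes or without genes that share 20% or more of their windows. Gene biology is background. Identity came from global alignment of coding sequences; protein sequences were not used here. TMM factors came from edgeR 4.0.16 (R 4.3.3), without its tests, and all else from Python 3.11.15 with scipy 1.17.1, pandas 2.3.3 and numpy 2.4.6. Ratios and intervals were tested on simulated counts. Reads are not independent molecules. One gene of the regulator list is not reported here and was left out of its counts.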

Additional observations from a re-analysis of the deposited data

How the results depend on the processing

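Depth and the lack of replicates set the limits: intervals cover counting error, and differences of genes under about 100 reads are imprecise. Under TMM, median ratio scaling and totals without mitochondrial genes or of protein-coding genes alone, 14 of 17 subfamily sums stayed higher in KO and 3 genes and 0 genes lay 2-fold higher and lower. The ratio of the summed CPM, 1.24, was 1.26 with TMM, 1.24 with median ratio scaling, 1.25 without mitochondrial genes, 1.33 without the 50 most abundant genes, 1.11 with the GC and length correction and 1.30 without Cyp2e1. Leaving out the 50 most abundant genes shifted all log2 ratios by 0.10; the median of the P450 genes became 0.28, and 5 of 56 genes lay 2-fold higher. The GC and length correction moved that median, 0.17 on the log2 scale, to 0.068 and turned the sums of Cyp2a (0.965), Cyp2e (0.897), Cyp2j (0.923), Cyp4a (0.997) and Cyp4v (0.946) below 1. Without the leading gene of each subfamily 6 of 8 sums were higher, and those of Cyp2j (0.989) and Cyp4f (0.9997) turned; fewer subfamilies then had a gene at 1 CPM. Without genes that share 20% or more of their windows, 14 of 17 sums stayed higher in KO, and Cyp4a moved to 1.66. With no filter 9 of 70 genes were 2-fold higher and 5 lower, genes at 0 reads in one library included. Of these, Cyp2j7, Cyp3a41b, Cyp4a29 and Cyp4f37 on the lower side had at most 2 reads in either library. So did Cyp2j13 and Cyp3a44 on the higher side. At 1.5-fold 10 were higher (10.3% of all genes). On log2 of FPKM plus 1, which shrinks low genes, 1 of 49 was 2-fold higher. No share of all genes was at hand for the counts of 56, 70 and 49 genes, so they have no background. No paired analysis was possible because each genotype is 1 library and the labels carry no replicate numbers.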

Other observations

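Pseudogenes beside the P450 genes also held reads and were no part of the sums. Cyp2d37-ps had 511 reads in KO and 797 in WT, a ratio of 0.809 (0.722 to 0.905), while the protein-coding Cyp2d sum had a ratio of 1.24. Cyp2c53-ps, which overlaps Cyp2c29 over 4.64% of the exon bases of that gene, had 7 reads in KO and 29 in WT, a ratio of 0.304 (0.113 to 0.710).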
